A study of Homo sapiens with 16 samples.

Results

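The 67 genes described here encode enzymes of 4 families of drug metabolism that were expressed in the human hepatocellular carcinoma (HCC) cell lines Huh7 and Hep3B: cytochromes P450 (CYP), UDP-glucuronosyltransferases (UGT), glutathione S-transferases (GST) and sulfotransferases (SULT). They were chosen by gene symbol, without pseudogenes and without CYP51A1, an enzyme of sterol synthesis. Each also had to reach at least 1 CPM (reads of the gene per 1000000 reads counted in the library) in at least 2 of the 16 libraries, in whichever groups these lay. Of 107 enzyme genes of the families, 67 passed this level, namely 24 of 54 CYP, 20 of 22 UGT, 14 of 18 GST and 9 of 13 SULT genes. In the whole series 15019 genes passed it. Among the 40 family genes below it was CYP3A4, the main drug-oxidizing P450 of the adult liver and the P450 known to oxidize Sorafenib, which lay between 0.0563 and 0.867 CPM in all 16 libraries. The liver enzymes CYP2E1 (at most 0.934 CPM) and CYP2C8 (at most 0.628 CPM) were also below it, and GSTA1 reached 1.53 CPM in 1 library.

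RNA was sequenced in 8 groups of 2 libraries each. For either line there were parental and DMSO cells, besides Sorafenib-resistant cells of 2 kinds. IR cells had been raised under rising drug concentrations, CR cells under a high one from the start. Sorafenib is a multikinase inhibitor given to patients with HCC. The labels state 7 µM Sorafenib for IR and CR cells and no treatment for parental and DMSO cells, so that exposure to the drug and resistance to it cannot be told apart. How the DMSO cells were handled, and whether each resistant line came from a single selection or clone, is not given in the sources used here. The study's methods speak of biological triplicates, while 2 libraries a group are analysed here and the labels do not name separate cultures, so that p-values measure the spread between these libraries and no more. The same 2 parental libraries served IR and CR cells.

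Between 46613302 and 76860251 reads per library had been counted, and a count of 0 allows up to 3 reads, or 0.0390 to 0.0644 CPM, from counting error alone. Replicates of Huh7 DMSO and of Huh7-IR cells stood farther apart than the others, with an SD of the difference between replicates of 0.571 and 0.566 log2 units over all genes, against 0.236 to 0.310 in the other groups. Both lines carried hepatocyte transcripts. The summed level of 8 hepatocyte markers (ALB, APOA1, APOB, TF, TTR, FGB, AHSG and SERPINA1) was 6933 to 9810 CPM in Huh7 parental cells, 84.8 to 394 CPM in Huh7-IR and 1285 to 2661 CPM in Huh7-CR cells. In Hep3B it was 17061 to 21690 CPM in parental, 3338 to 10173 CPM in IR and 1197 to 2107 CPM in CR cells. Of the 8 markers 7 were lower in Huh7-IR and 6 in Huh7-CR, against 3 (IR) and 6 (CR) in Hep3B, and SERPINA1 was higher in Hep3B-IR cells. Of 4 bile duct markers KRT7 alone rose, in both Huh7 lines and Hep3B-CR cells (3.68, 3.64 and 1.68 on the log2 scale). The 4 bile duct markers summed to 235 to 236 CPM in Huh7 parental and 249 to 377 CPM in resistant Huh7 libraries, and to 761 to 806 CPM and 813 to 979 CPM in Hep3B. Of 4 fibroblast markers tested of 5, COL1A1 rose in all 4 resistant lines (4.21 to 5.69), 3 rose and 1 fell in either resistant Huh7 line, and in Hep3B 1 rose and 1 fell with IR and 1 rose with CR, with sums of 283 to 336 CPM in Huh7 parental, 298 to 673 CPM in resistant Huh7, 27.7 to 37.0 CPM in Hep3B parental and 33.1 to 87.0 CPM in resistant Hep3B libraries. The 3 endothelial markers summed to at most 1.04 CPM in resistant libraries. Of 3 leukocyte markers CD68 rose in all 4 lines (1.78 to 3.62), from 2.58 to 10.3 CPM in parental to 27.6 to 71.9 CPM in resistant libraries, while PTPRC, which defines leukocytes, was at most 0.262 CPM there. The part of these shifts in the results below was not tested, and fewer cells of a type and less RNA per cell cannot be told apart in bulk RNA.

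Drug metabolism runs in phases. P450 enzymes of the endoplasmic reticulum insert an oxygen atom into drugs, steroids, fatty acids and vitamins, with electrons from the reductase POR. UGT, SULT and GST enzymes then attach glucuronic acid, sulfate or glutathione, which makes the products soluble enough for bile and urine. The genes are most active in hepatocytes, and many are induced by xenobiotic sensors, AHR for CYP1 genes and the nuclear receptors PXR (NR1I2) and CAR (NR1I3) for CYP2B and CYP3A genes. Sorafenib itself is known to be oxidized by CYP3A4 and glucuronidated by UGT1A9.

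The 250 bases before the transcription start are shown for 5 members with the widest changes, as they stand in RefSeq on GRCh38.p14. Of the 67 members, 52 were matched to a promoter entry. Capitals mark 3 motifs searched on both strands: GCGTG, the core bound by AHR with ARNT, AGGTCA, the half-site of nuclear receptors, and GTTAAT, the half-site of HNF1.

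CYP1A1 (chr15:74725529-74725778, minus strand): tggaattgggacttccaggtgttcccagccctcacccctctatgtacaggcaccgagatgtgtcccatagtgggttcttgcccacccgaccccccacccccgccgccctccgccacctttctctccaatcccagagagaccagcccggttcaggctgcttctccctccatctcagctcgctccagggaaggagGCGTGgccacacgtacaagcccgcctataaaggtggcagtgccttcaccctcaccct
CYP2B6 (chr19:40991032-40991281, plus strand): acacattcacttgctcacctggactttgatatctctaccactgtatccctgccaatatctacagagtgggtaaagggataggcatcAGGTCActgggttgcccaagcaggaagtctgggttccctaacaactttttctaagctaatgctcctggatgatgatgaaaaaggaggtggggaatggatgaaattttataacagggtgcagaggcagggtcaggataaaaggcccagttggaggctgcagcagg
CYP2S1 (chr19:41192969-41193218, plus strand): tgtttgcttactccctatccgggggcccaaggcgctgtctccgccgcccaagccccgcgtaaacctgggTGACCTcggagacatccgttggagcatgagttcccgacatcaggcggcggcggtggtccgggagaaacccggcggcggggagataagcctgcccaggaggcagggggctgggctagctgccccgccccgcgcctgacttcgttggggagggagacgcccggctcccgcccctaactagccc
SULT1E1 (chr4:69860146-69860395, minus strand): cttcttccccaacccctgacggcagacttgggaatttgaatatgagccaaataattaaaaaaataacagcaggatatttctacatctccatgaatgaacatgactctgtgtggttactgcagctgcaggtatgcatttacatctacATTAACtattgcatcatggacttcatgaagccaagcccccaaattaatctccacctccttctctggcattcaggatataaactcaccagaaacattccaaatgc
SULT2A1 (chr19:47886316-47886565, minus strand): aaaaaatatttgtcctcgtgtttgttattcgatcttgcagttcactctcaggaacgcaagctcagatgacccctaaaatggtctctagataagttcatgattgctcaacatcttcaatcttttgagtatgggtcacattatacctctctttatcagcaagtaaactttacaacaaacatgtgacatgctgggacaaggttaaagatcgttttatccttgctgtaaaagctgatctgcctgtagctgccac

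CYP1A1 held GCGTG 57 to 53 bases before the start, CYP2B6 held AGGTCA 164 to 159 bases before it, and CYP2S1 held AGGTCA on the opposite strand 181 to 176 bases before it. SULT1E1 held GTTAAT on the opposite strand 104 to 99 bases before the start, and the SULT2A1 window held none of the 3 motifs. GCGTG stood in 14 of the 52 member promoters (26.9%) and in 32.2% of all 35116 RefSeq promoters. AGGTCA stood in 14 (26.9%) against 12.1%, and GTTAAT in 8 (15.4%) against 6.23%. A match of letters is a description and not a bound site.

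Tests were made with limma on the log2(CPM + 1) values in one model of all 16 libraries. A gene counted as changed, and is said below to have risen or fallen, at a Benjamini-Hochberg adjusted p under 0.05 over all 15019 genes if its log2 fold change was also 0.58 or more in size. Fold changes on this scale understate the change of genes near 0 CPM. In Huh7-IR cells 10 members rose and 14 fell, or 35.8% of the 67, where 48.8% of all genes changed (31.1% rose and 17.8% fell). In Huh7-CR cells 23 rose and 12 fell (52.2%), where 34.5% of all genes changed (20.9% rose and 13.6% fell). With members that share reads (the UGT1A locus, and SULT1A3 with SULT1A4) counted once, 15 rose and 12 fell there. In Hep3B-IR cells 22 rose and 7 fell (43.3%), where 27.1% of all genes changed (15.7% rose and 11.4% fell). In Hep3B-CR cells 13 rose and 10 fell (34.3%), where 32.2% of all genes changed (20% rose and 12.3% fell). Quantile normalization turned the split to 7 risen and 17 fallen in Huh7-IR and to 10 and 13 in Hep3B-CR cells. In Huh7 the median log2 fold change of the members was 0.14 with IR and 0.05 with CR, against 0.19 and 0.07 over all genes. In Hep3B it was 0.63 with IR and -0.01 with CR, against 0.06 and 0.11. TMM scaling lowered the median of all genes to 0.04 in Huh7-IR and to 0.02 in Hep3B-CR cells.

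Since a group holds 2 libraries, each call was repeated without any 1 library of the groups compared. Of the calls, 19 of 24 (IR) and 17 of 35 (CR) held throughout in Huh7, and 18 of 29 (IR) and 10 of 23 (CR) in Hep3B. Under all alternatives run, other scalings and tools included, 15 and 16 of them held in Huh7 and 13 and 6 in Hep3B. Where a named member did not hold, its value without the library is mostly given in the same paragraph. A call listed without such a value did not always hold. Of the 67 members 6 changed in all 4 resistant lines, 6 in 3, 20 in 2, 29 in 1 and 6 in none. Over all genes 5.28% rose and 2.88% fell in all 4. Shares of all genes for fewer lines were not counted, and IR and CR cells of a line share their parental libraries.

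**Figure D1:**
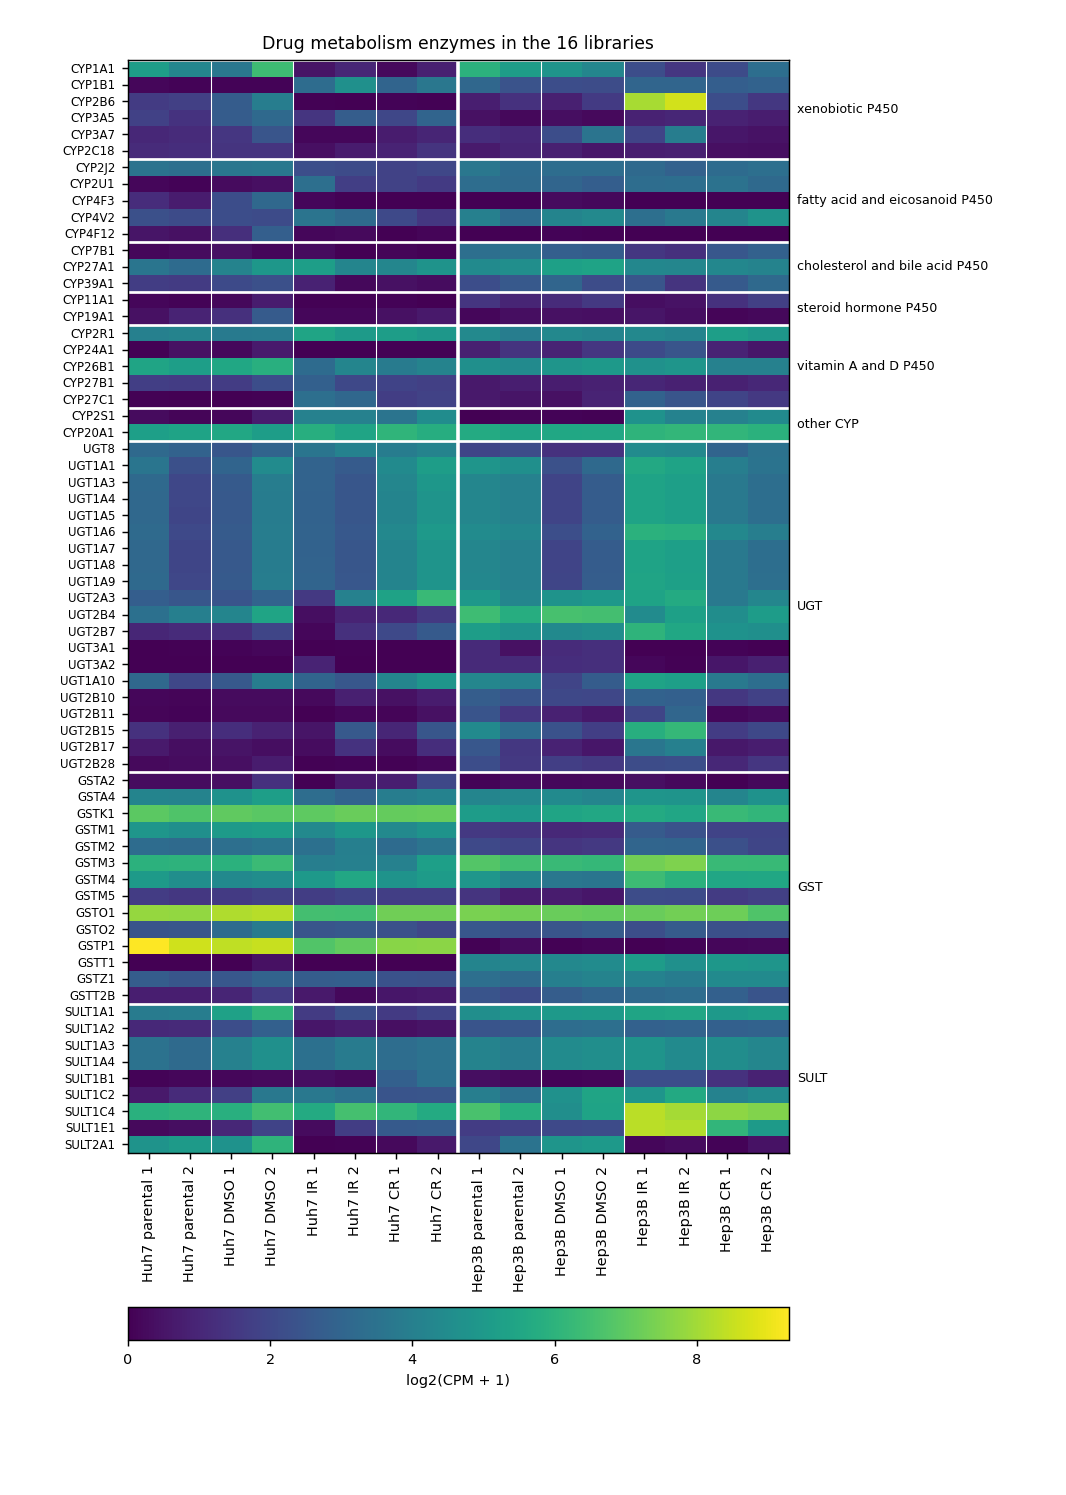
Levels of 66 of the 67 members (rows, grouped by role or family) in the 16 libraries (columns), as log2(CPM + 1) on the color scale. CYP1A1, SULT2A1 and UGT2B4 are darker in the resistant libraries of both lines, CYP2S1 is brighter in all of them, and CYP2B6 and SULT1E1 stand out in both Hep3B-IR libraries.

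Of the 6 members changed the same way in all 4 resistant lines, CYP1A1, SULT2A1 and UGT2B4 fell and CYP2S1, CYP27C1 and UGT8 rose. Over all genes 793 (5.28%) rose and 432 (2.88%) fell in all 4. CYP1A1 (chromosome 15, 75011883 to 75017877 in GRCh37) oxidizes polycyclic aromatic hydrocarbons and is the classic target gene of AHR. It measured 35.5 and 18.1 CPM in Huh7 parental, 0.398 and 1.01 CPM in Huh7-IR and 0.170 and 0.759 CPM in Huh7-CR cells. In Hep3B the values were 61.9 and 35.5 CPM in parental, 3.61 and 1.81 CPM in IR and 3.38 and 9.31 CPM in CR cells. All 8 resistant libraries lay below all 4 parental ones. Log2 fold changes in Huh7 were -3.98 (IR) and -4.20 (CR), and those in Hep3B -3.74 (IR) and -2.83 (CR), each ± 0.71 (SE), with limma's adjusted p between 0.00051 and 0.0081. The Hep3B-CR change lost its call without parental replicate 1 (-2.44, limma adjusted p = 0.063), without Hep3B-CR replicate 1 (-2.22, 0.082) and against the DMSO in place of the parental libraries (-1.79, 0.065). The Huh7 DMSO libraries themselves measured 11.9 and 84.2 CPM.

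SULT2A1 (chromosome 19, 48373724 to 48389572), which sulfates DHEA and bile acids, fell from 26.2 and 32.7 CPM in Huh7 parental cells to 0 and 0.0429 CPM in Huh7-IR and 0.185 and 0.550 CPM in Huh7-CR cells. Only 2 reads were counted in both Huh7-IR libraries together against 4245 in parental ones, a 1583-fold ratio with a 95% counting interval of 438 to 13075. In Hep3B it fell from 2.95 and 10.6 CPM to 0.134 and 0.199 CPM in IR and 0.0530 and 0.362 CPM in CR cells, while DMSO cells measured 27.4 and 31.4 CPM. The parental and resistant libraries did not overlap in either line. The log2 fold changes were -4.89 and -4.48 with IR and CR in Huh7, and -2.54 and -2.50 in Hep3B (SE 0.46, limma adjusted p at most 0.0012). SULT2A1 kept its call in all 4 lines without any 1 library.

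UGT2B4 (chromosome 4, 70345883 to 70391732), which glucuronidates bile acids, measured 9.76 and 15.1 CPM in Huh7 parental, 0.282 and 0.901 CPM in Huh7-IR and 1.08 and 1.90 CPM in Huh7-CR cells. In Hep3B it measured 84.9 and 53.9 CPM in parental, 21.2 and 38.2 CPM in IR and 22.5 and 33.8 CPM in CR cells. The log2 fold changes were -3.07 and -2.42 in Huh7 and -1.22 and -1.26 in Hep3B (SE 0.41). The Hep3B changes were the less firm ones. In Hep3B-IR cells the call was lost without parental replicate 1 (-0.90), parental replicate 2 (-1.54) or IR replicate 1 (-0.81) and by edgeR on the reads (-1.27), and in Hep3B-CR cells without parental replicate 1 (-0.94) or CR replicate 1 (-0.98).

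CYP2S1 (chromosome 19, 41699115 to 41713444), a P450 of epithelia outside the liver, rose from at most 0.218 CPM in parental libraries to 11.0 to 25.6 CPM in resistant ones. Huh7 parental libraries measured 0.218 and 0.0804 CPM, Huh7-IR 15.8 and 16.1 CPM and Huh7-CR 11.0 and 21.7 CPM. Hep3B parental libraries measured 0 and 0.0844 CPM, Hep3B-IR 25.6 and 16.2 CPM and Hep3B-CR 15.9 and 20.6 CPM. The log2 fold changes were 3.89, 3.84, 4.36 and 4.20 (SE 0.30, limma adjusted p at most 1.6e-06), and the difference between Huh7 and Hep3B did not pass the test (-0.41 ± 0.37 SE). Every alternative kept these calls. CYP27C1 (chromosome 2, 127941408 to 127977889), known to convert vitamin A to its 3,4-didehydro form, rose from 0.0291 and 0 CPM to 9.42 and 7.64 CPM in Huh7-IR and 2.26 and 2.60 CPM in Huh7-CR cells. In Hep3B it rose from 0.565 and 0.450 CPM to 6.503 and 4.41 CPM in IR and 2.78 and 1.90 CPM in CR cells. Its changes were 3.22, 1.76, 2.08 and 1.14 (SE 0.21), and it was higher in IR than in CR cells of both lines. Its call in Hep3B-CR cells did not hold in every alternative, while those in the other resistant lines did. The call of IR against CR cells in Hep3B (0.94) was lost without IR replicate 1 (0.71) or CR replicate 2 (0.75). CYP2S1 and CYP27C1 each reached 1 CPM in 8 libraries, all of them resistant. Both thus became members only through the groups where they were high, and could hardly have been found to fall.

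UGT8 (chromosome 4, 115519926 to 115599381) transfers galactose to ceramide and is a lipid enzyme rather than a drug enzyme. It measured 8.02 and 6.603 CPM in Huh7 parental, 11.2 and 16.2 CPM in Huh7-IR and 13.8 and 16.9 CPM in Huh7-CR cells. In Hep3B it rose from 2.84 and 3.52 CPM to 21.4 and 19.1 CPM in IR and 6.88 and 10.3 CPM in CR cells. The changes were 0.81 and 0.98 in Huh7 and 2.35 and 1.18 in Hep3B (SE 0.25). The Huh7 calls were lost without parental replicate 2 (0.68 in IR, 0.85 in CR cells), IR replicate 2 (0.56) or CR replicate 2 (0.84), and quantile normalization ended that of Huh7-IR cells (0.39, limma adjusted p = 0.17).

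**Figure D2:**
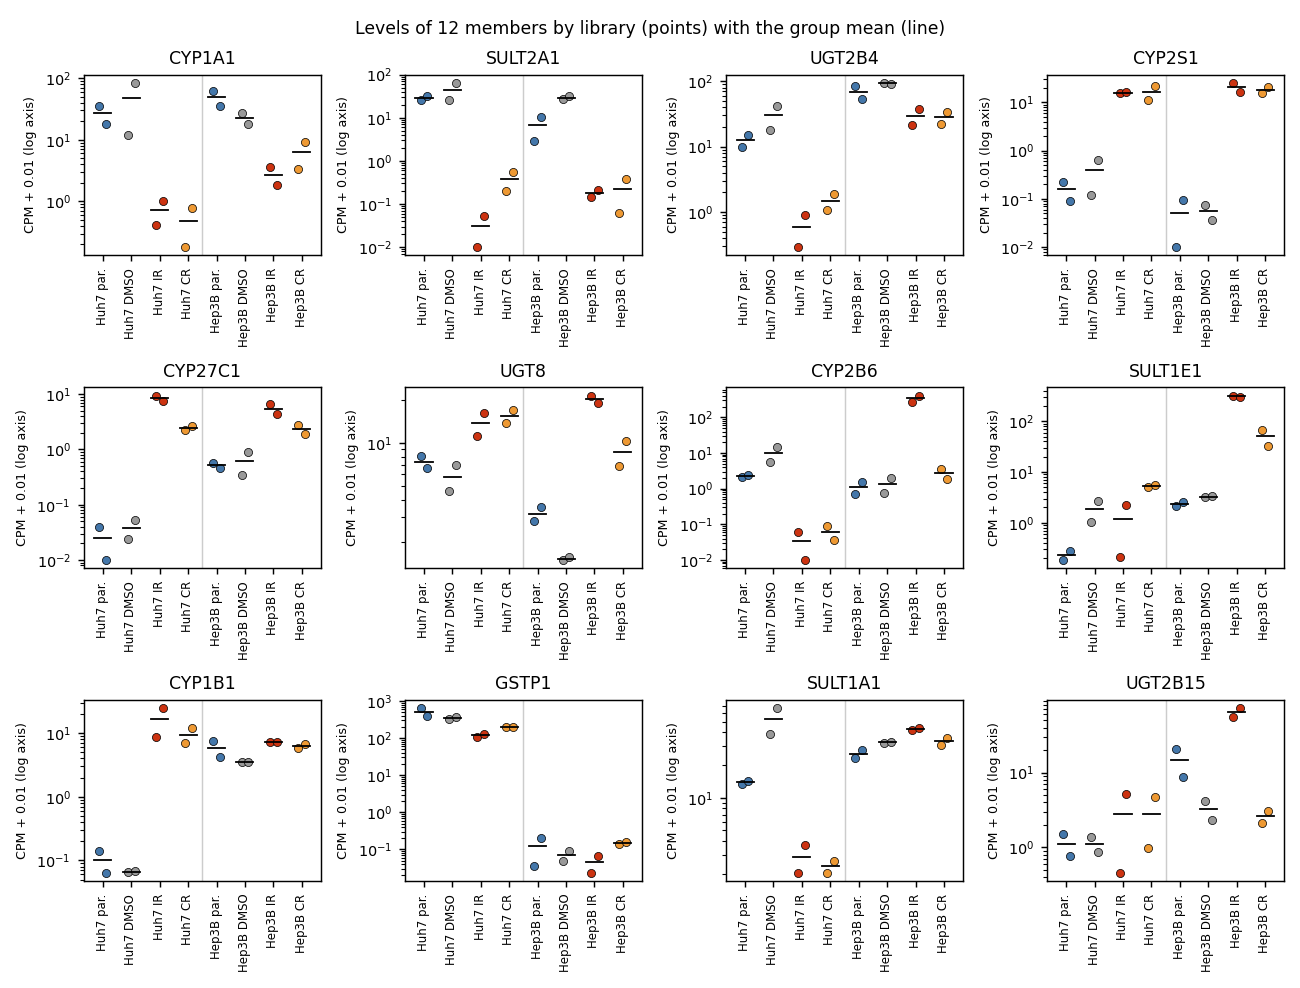
Level of 12 members in CPM plus 0.01 on log axes, with a point per library and a line at the group mean (par., parental). CYP1A1, SULT2A1 and UGT2B4 lie lower and CYP2S1, CYP27C1 and UGT8 higher in the resistant cells of either line, while CYP2B6, SULT1A1 and CYP1B1 moved in one line only or in opposite directions.

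Of the 7 xenobiotic P450 members, 1 rose and 3 fell with IR in Huh7 (1 and 2 with CR), while 3 rose and 1 fell with IR in Hep3B (none and 1 with CR). Over all genes 48.8% (IR) and 34.5% (CR) changed in Huh7, and 27.1% (IR) and 32.2% (CR) in Hep3B. Counts of so few members are to be read against these shares. CYP2B6 (chromosome 19, 41497187 to 41524303), the CAR target that oxidizes cyclophosphamide and efavirenz, went in opposite directions in the lines. In Huh7 it measured 2.05 and 2.38 CPM in parental, 0.0497 and 0 CPM in IR and 0.0773 and 0.0262 CPM in CR cells (-1.65 and -1.61 on the log2 scale, SE 0.39). Neither of its Huh7 calls held in every alternative. In Hep3B it measured 0.700 and 1.51 CPM in parental cells and 271 and 407 CPM in IR cells, a change of 7.33 (limma adjusted p = 1.7e-07) and the largest of any member. Hep3B-CR cells measured 3.56 and 1.83 CPM (0.80, adjusted p = 0.13 by limma). Per length it came behind GSTO1 (186) and SULT1E1 (175) among the members in Hep3B-IR cells, at a level of 110 CPM per kb of transcript. Its pseudogene neighbour CYP2B7P, nearly identical in sequence, measured 12.8 and 17.1 CPM in Hep3B-IR cells and at most 0.833 CPM elsewhere, so some reads of the pair may have been exchanged. NR1I3, the gene of CAR, did not pass the level of 1 CPM.

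CYP1B1 (chromosome 2, 38294116 to 38337044), an AHR target that hydroxylates estradiol and procarcinogens, rose in Huh7 cells while CYP1A1 fell. It measured 0.131 and 0.0536 CPM in Huh7 parental, 8.79 and 24.4 CPM in IR and 6.94 and 11.96 CPM in CR cells, which on the log2 scale was a rise of 3.85 and 3.22 (SE 0.38, at most 3.8e-05 for limma's adjusted p). Hep3B parental cells already measured 7.58 and 4.19 CPM, and the resistant Hep3B libraries lay between 5.93 and 7.18 CPM. The changes there were 0.29 and 0.12 and did not pass the test. CYP3A7, the P450 of fetal liver, measured 1.35 and 1.13 CPM in Hep3B parental and 2.70 and 14.2 CPM in Hep3B-IR cells. Its rise of 1.75 ± 0.56 (SE) was lost without IR replicate 2 (0.73), without either parental replicate (1.82 and 1.68) under quantile normalization (1.48) and against the DMSO libraries (0.02), which measured 3.59 and 10.9 CPM. Most of its reads also count for a readthrough transcript with a neighbouring pseudogene. CYP3A5, the other CYP3A member, lay between 1.54 and 7.96 CPM in Huh7 and under 1 CPM in Hep3B libraries, and its changes of 0.50 to 0.92 did not pass the test. CYP2C18 fell in Huh7-IR cells by 0.64, a call lost without parental replicate 2 (-0.60) or IR replicate 1 (-0.47).

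Of the 5 P450 enzymes of fatty acids and eicosanoids 2 rose and 2 fell with IR in Huh7 and 1 and 2 with CR, while 1 rose with CR in Hep3B. The shares of all genes given above for the xenobiotic P450 members hold here too. The difference between the lines passed the test for 3 of them, 1 with the higher and 2 with the lower change in Huh7. Over all genes 29.4% differed, 16.3% with the higher and 13.1% with the lower change in Huh7. CYP2J2, which makes epoxides of arachidonic acid, fell in Huh7 from 10.8 and 9.58 CPM to 3.65 and 3.39 CPM in IR and 2.58 and 2.91 CPM in CR cells (-1.30 and -1.58, SE 0.18). Hep3B libraries lay between 6.31 and 11.8 CPM without a call. CYP2U1 (chromosome 4, 108852705 to 108874617), a hydroxylase of long-chain fatty acids, rose in Huh7 from 0.131 and 0.0536 CPM to 9.58 and 2.27 CPM in IR and 2.60 and 1.98 CPM in CR cells (2.43 and 1.58, SE 0.39). Without CR replicate 1 the change in Huh7-CR cells was 1.45 with an adjusted p of 0.050 by limma, just short of the call. Hep3B libraries of all groups already lay between 5.84 and 10.3 CPM. CYP4F3, which inactivates leukotriene B4, fell in Huh7 from 1.28 and 0.643 CPM to 0.116 and 0.0429 CPM in IR cells and to 0 CPM in both CR libraries. The latter is an at least 20.7-fold decrease when set against the floor of 3 reads per library. Both calls (-0.84 and -0.95) were lost without parental replicate 1 (-0.61 and -0.72). CYP4V2, an omega-hydroxylase of fatty acids, rose in Huh7-IR cells from 3.86 and 3.38 CPM to 11.0 and 8.35 CPM (1.20 ± 0.29 SE), and quantile normalization ended the call (0.70). In Hep3B-CR cells its rise (0.85) was lost without parental replicate 2 (0.46) or CR replicate 2 (0.58), under TMM and quantile normalization (0.74 and 0.67), by edgeR and DESeq2 (0.78 and 0.76) and against the DMSO libraries (0.22).

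Among the 3 P450 members of cholesterol and bile acid metabolism, CYP27A1, the mitochondrial sterol 27-hydroxylase, rose in Huh7 from 11.3 and 8.63 CPM to 36.1 and 17.6 CPM in IR and 18.3 and 26.1 CPM in CR cells (1.27 and 1.07, SE 0.31). The call in CR cells was lost without parental replicate 2 (0.90) or CR replicate 2 (0.83). Against the DMSO libraries, at 16.9 and 29.2 CPM, neither held (0.18 and -0.02). CYP7B1, the oxysterol 7-alpha-hydroxylase, was near 0 in Huh7 and fell in Hep3B from 9.45 and 10.3 CPM to 1.82 and 1.46 CPM in IR and 4.77 and 6.32 CPM in CR cells (-2.04 and -0.74, SE 0.17). The smaller change was lost without CR replicate 1 (-0.57), by edgeR and DESeq2 on the reads (-0.95 and -0.97) and against the DMSO libraries (-0.07). CYP39A1, which acts on 24-hydroxycholesterol, fell in Huh7 from 2.18 and 2.04 CPM to 0.862 and 0.150 CPM in IR and 0.340 and 0.236 CPM in CR cells (-1.09 and -1.27, SE 0.37). In IR cells this call was lost without parental replicate 1 (-1.05), parental replicate 2 (-1.12) or IR replicate 2 (-0.74), and in CR cells without any 1 of the 4 libraries (-1.21 to -1.33). CYP7A1 and CYP8B1, the classic enzymes of bile acid synthesis, did not reach 1 CPM in any library.

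The 5 P450 enzymes of vitamins A and D split by enzyme. CYP2R1, the 25-hydroxylase of vitamin D, rose in Huh7 from 15.6 and 17.0 CPM to 42.6 and 32.4 CPM in IR and 34.8 and 29.1 CPM in CR cells (1.14 and 0.92, SE 0.19). In Hep3B it rose in CR cells alone to 36.3 and 29.4 CPM from 19.5 and 14.2 CPM (0.93), and IR cells lay at 19.0 and 17.3 CPM. CYP26B1, which clears retinoic acid, fell in Huh7 from 41.9 and 36.1 CPM to 8.42 and 17.6 CPM in IR and 13.5 and 16.7 CPM in CR cells (-1.59 and -1.32, SE 0.26), and its changes in Hep3B (0.24 and -0.45) did not pass the test. CYP24A1, which inactivates vitamin D, rose in Hep3B-IR cells from 0.754 and 1.63 CPM to 3.24 and 4.43 CPM (1.16 ± 0.25 SE), a call that edgeR (1.61) and DESeq2 (1.59) on the reads did not make. CYP27B1, which activates vitamin D, rose by 0.76 in Huh7-IR cells, lost without either parental replicate (0.80 and 0.73) or IR replicate 1 (0.34), under quantile normalization (0.25), by edgeR and DESeq2 (0.88 and 0.87) and against the DMSO libraries (0.52). Of the steroid hormone enzymes, CYP11A1, which cleaves the cholesterol side chain, fell in Hep3B-IR cells from 1.71 and 0.928 CPM to 0.268 and 0.355 CPM (-0.80 ± 0.22 SE), and the call was lost without parental replicate 1 (-0.56) or IR replicate 1 (-0.75). CYP19A1, the aromatase, changed in no resistant line. CYP20A1, an orphan P450, lay between 35.3 and 69.3 CPM in all libraries and rose by 0.62 in Huh7-CR cells, lost without parental replicate 1 (0.55) or CR replicate 1 (0.48) and under other scalings, edgeR, DESeq2 and the DMSO reference (0.52 to 0.55).

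**Figure D3:**
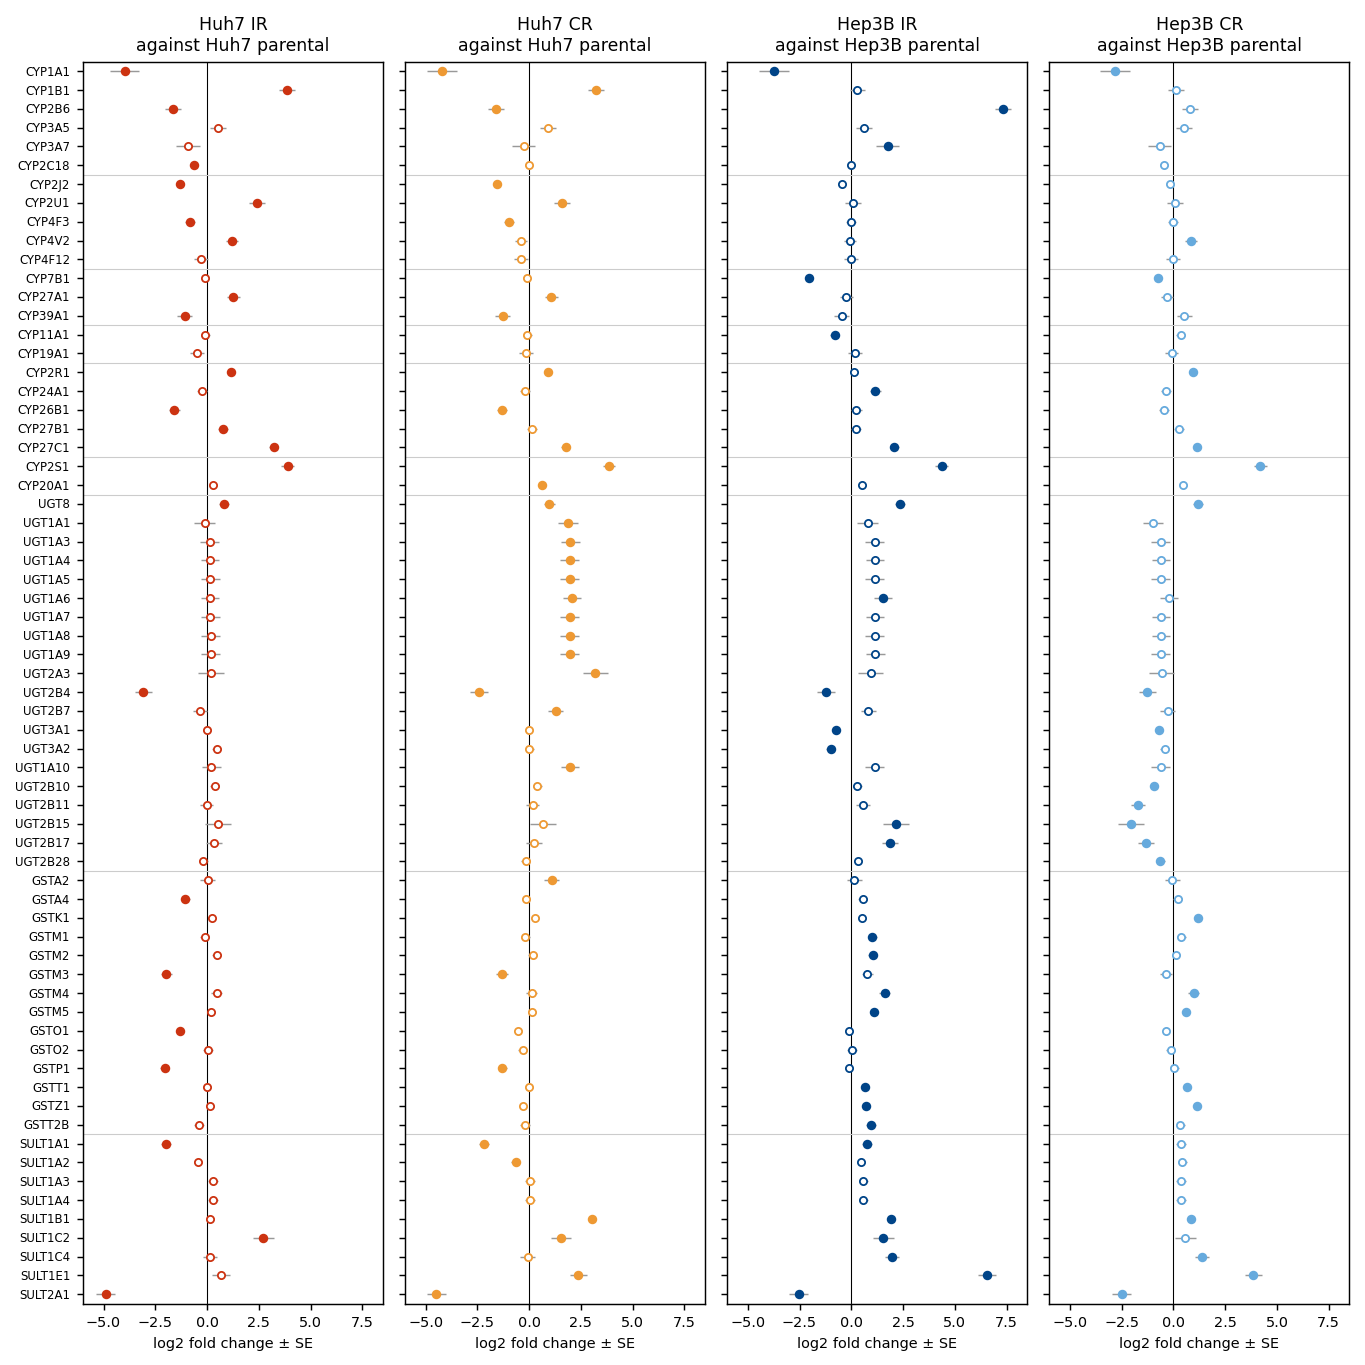
Log2 fold change of log2(CPM + 1) over parental cells with its SE for 66 of the 67 members in the 4 resistant lines. Filled points passed the test (limma, adjusted p under 0.05 and at least 0.58 in size) and open points did not. CYP2B6 and SULT1E1 lie farthest to the right in Hep3B-IR, and the UGT1A members lie right of 0 together in Huh7-CR.

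UGT members went apart between the 2 regimens of Sorafenib, largely as 1 locus. Of the 20, 12 rose and 1 fell in Huh7-CR against 1 and 1 in Huh7-IR cells, and 4 rose and 3 fell in Hep3B-IR against 1 and 7 in Hep3B-CR cells. Over all genes 20.9% rose and 13.6% fell in Huh7-CR and 31.1% and 17.8% in Huh7-IR cells. In Hep3B 15.7% of all genes rose and 11.4% fell with IR, and 20% and 12.3% with CR. In the direct comparison 11 UGT members were lower in Huh7-IR than in Huh7-CR cells, and 15 were higher in Hep3B-IR than in Hep3B-CR cells, where 5.43% of all genes were lower and 5.33% higher. In either count 9 belonged to the UGT1A locus, and with members that share reads counted once the calls over all families went from 19 to 11 in Huh7 and from 27 to 19 in Hep3B. Hence the regimen with the higher UGT level was CR in Huh7 and IR in Hep3B. The calls within Huh7 all rested on CR replicate 2 and were lost without it, UGT1A9 at -1.46 and UGT2A3 at -2.52, and those of the UGT1A members in Hep3B were lost without any 1 of the 4 libraries.

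The 9 UGT1A members are alternative first exons on chromosome 2 (UGT1A8 from 234526279, UGT1A9 from 234580544, UGT1A6 from 234600253 and UGT1A1 from 234668916, all ending at 234681946), joined to 4 common exons. Reads in the common exons counted for each of them. The lowest member held between 63.0% and 100% of the reads of every other member in a library, so the 9 counts are close to 1 measurement of the locus. UGT1A9, the enzyme that glucuronidates Sorafenib, was read at 7.99 and 2.92 CPM in Huh7 parental, 6.88 and 4.70 CPM in Huh7-IR and 17.5 and 27.4 CPM in Huh7-CR cells. In Hep3B it was read at 18.6 and 16.04 CPM in parental, 41.5 and 37.6 CPM in IR and 12.6 and 9.42 CPM in CR cells, with 2.85 and 5.72 CPM in DMSO cells. All 9 members rose in Huh7-CR cells by 1.86 to 2.06 on the log2 scale, and 8 of these calls were lost without parental replicate 2 (1.20 for UGT1A1, 1.35 for UGT1A9). UGT1A6 alone kept its call. In Hep3B-IR cells UGT1A6 alone rose (1.52 ± 0.44 SE), lost without any 1 library (1.42 to 1.62). UGT1A9 changed there by 1.15 (adjusted p = 0.074 by limma), and with CR by -0.62 against parental but 1.23 against DMSO cells.

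What a member held beyond the lowest one came from its own first exon. For UGT1A9 this was at most 1.05 CPM in any library. Nearly all reads counted for UGT1A9 were thus counted for the other members too, and cannot be assigned to any of them. UGT1A6, which glucuronidates phenols and is an AHR target, held 3.23 and 2.64 CPM of its own in Hep3B parental, 19.2 and 21.2 CPM in Hep3B-IR and 6.58 and 5.48 CPM in Hep3B-CR cells. UGT1A1, the bilirubin enzyme, held 9.49 and 7.68 CPM in Hep3B parental, 7.49 and 4.72 CPM in IR and 2.09 and 1.24 CPM in CR cells. The own reads of UGT1A6 lay above those of UGT1A1 in all 4 resistant Hep3B libraries and below them in both parental ones. In Huh7-CR cells UGT1A1 held 3.74 and 7.53 CPM, UGT1A6 1.87 and 4.19 CPM and UGT1A3 0.774 and 1.74 CPM, against 3.33 and 0.991, 0.335 and 0.228 and 0.291 and 0.0804 CPM in parental cells. Own reads were not tested, and with 2 against 2 libraries an exact permutation test could not reach 0.05.

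**Figure D4:**
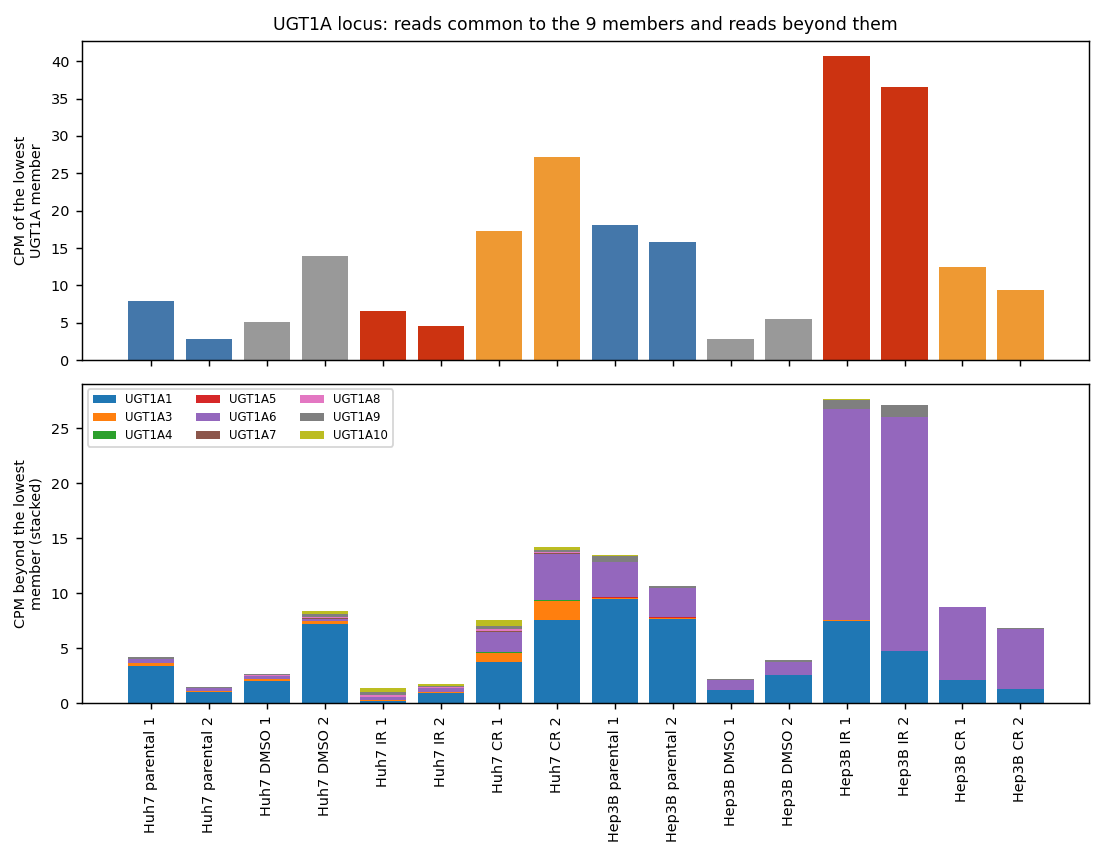
Reads of the UGT1A locus per library in CPM, with the lowest of the 9 members above, which stands for the common exons, and the reads of each member beyond it stacked below. Own reads of UGT1A6 make up most of the lower bars in both Hep3B-IR libraries, and those of UGT1A1 in Hep3B parental cells.

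Among the 8 UGT2 members, UGT2B15 (chromosome 4, 69512315 to 69536370) and UGT2B17, near-identical enzymes of androgen glucuronidation, moved in opposite directions in the 2 resistant Hep3B lines. UGT2B15 measured 20.9 and 8.75 CPM in parental, 55.8 and 71.9 CPM in IR and 2.14 and 3.07 CPM in CR cells, with changes of 2.14 and -2.03 (SE 0.62). UGT2B17 measured 4.70 and 1.84 CPM, 11.7 and 15.6 CPM and 0.530 and 0.685 CPM (1.85 and -1.33, SE 0.39). UGT2B15 in IR cells lost its call without parental replicate 2 (1.56), IR replicate 1 (2.32) or IR replicate 2 (1.96) and by edgeR and DESeq2 (2.07 and 2.05), and UGT2B17 there by edgeR (2.02). In CR cells both lost it without parental replicate 1 (-1.45 and -0.82), CR replicate 1 (-1.84 and -1.26) or CR replicate 2 (-2.21 and -1.40), and against the DMSO libraries (-0.20 and -0.05). The difference between IR and CR cells, 4.17 for UGT2B15 and 3.18 for UGT2B17, held in every alternative. UGT2B11 (2.28) differed likewise, from 2.82 and 7.35 CPM in IR to 0.119 and 0.209 CPM in CR cells. The reads of UGT2B15 and UGT2B17 could not be told apart fully, as only reads with 1 place in the genome had been counted.

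UGT2A3 (chromosome 4, 69794181 to 69817522), of bile acid glucuronidation, rose in Huh7-CR cells from 5.88 and 4.59 CPM to 39.5 and 78.2 CPM (3.19 ± 0.61 SE), while Huh7-IR libraries measured 1.91 and 16.1 CPM. UGT2B7, the enzyme of morphine and many other drugs, rose in Huh7-CR cells from 0.975 and 1.22 CPM to 3.15 and 5.22 CPM (1.28 ± 0.35 SE), a call lost without parental replicate 1 (1.20), CR replicate 2 (0.99) and against the DMSO libraries (0.74). In Hep3B it measured 34.9 and 25.9 CPM in parental and 65.2 and 45.1 CPM in IR cells (0.83, limma adjusted p = 0.093). UGT2B10 and UGT2B28 fell in Hep3B-CR cells by 0.94 and 0.63. The UGT2B28 call was lost without parental replicate 1 (-0.31) or CR replicate 1 (-0.42) and by edgeR and DESeq2 (-1.09 and -1.11), and neither held against the DMSO libraries (-0.35 and -0.39). UGT3A1 and UGT3A2 fell in Hep3B-IR cells from levels of at most 1.17 CPM to at most 0.134 CPM (-0.75 and -0.99), the first of them not without parental replicate 1 (-0.39).

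The GST members that changed fell in Huh7, with 1 exception, and rose in Hep3B. Of the 14, 4 fell in Huh7-IR, 2 fell and 1 rose (GSTA2, 1.08, lost without CR replicate 2 at 0.47 either parental replicate at 1.10 and 1.07 or against the DMSO libraries at 0.55, and by edgeR and DESeq2 at 2.87 and 2.89) in Huh7-CR, and in Hep3B 7 rose with IR and 5 with CR. Over all genes 17.8% fell with IR and 13.6% with CR in Huh7, and 15.7% (IR) and 20% (CR) rose in Hep3B. The difference between the lines in the mean resistant change passed the test for 10 GST members, all with the lower change in Huh7. Over all genes 29.4% differed, 13.1% with the lower change in Huh7. GSTP1 was near 0 in Hep3B and could hardly fall there. GSTP1 (chromosome 11, 67351213 to 67354127), the pi enzyme that also binds stress kinases, was the most abundant member per length in Huh7 parental cells, at 688 CPM per kb. It fell from 627 and 393 CPM to 108 and 132 CPM in Huh7-IR and 201 and 202 CPM in Huh7-CR cells (-2.05 and -1.30, SE 0.21), and Huh7-IR lay below Huh7-CR cells (-0.75, lost without IR replicate 1 at -0.60, CR replicate 1 at -0.76 or CR replicate 2 at -0.74). In Hep3B GSTP1 was at 0.0134 to 0.197 CPM in all 8 libraries. GSTM3, the mu enzyme of brain and testis, fell in Huh7 from 61.7 and 62.6 CPM to 14.6 and 15.7 CPM in IR and 16.1 and 37.2 CPM in CR cells (-1.97 and -1.31, SE 0.28). GSTO1, the omega enzyme that reduces dehydroascorbate, fell in Huh7-IR cells from 224 and 220 CPM to 91.4 and 88.0 CPM (-1.30 ± 0.15 SE), and GSTA4, which clears 4-hydroxynonenal, from 17.4 and 17.0 CPM to 8.92 and 6.80 CPM (-1.05 ± 0.21 SE).

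In Hep3B-IR cells the risen GST members were GSTM1, GSTM2, GSTM4, GSTM5, GSTT1, GSTT2B and GSTZ1. The calls of GSTM1, GSTM2 and GSTM4 held in every alternative and those of the others did not. GSTT2B and the pseudogene GSTT2 had equal reads in 6 of the 16 libraries and differed by at most 4 reads, so the pair is close to 1 measurement. GSTM4 rose from 28.8 and 17.1 CPM to 81.0 and 60.3 CPM in IR and 44.5 and 45.0 CPM in CR cells (1.61 and 0.98, SE 0.26), and GSTM1 (chromosome 1, 110230436 to 110251661) from 1.91 and 1.67 CPM to 5.34 and 4.05 CPM in IR cells (1.02 ± 0.22 SE). The GSTM4 call in CR cells was lost without parental replicate 2 (0.62), CR replicate 1 (0.99) or CR replicate 2 (0.97). The mu genes are close copies of each other, and reads that fitted several of them had been left out. GSTT1, the theta enzyme that acts on dichloromethane and other halogenated compounds, rose from 17.3 and 18.4 CPM to 33.9 and 24.6 CPM in IR and 29.1 and 28.0 CPM in CR cells (0.67 and 0.65, SE 0.19). These calls were lost without either parental replicate (0.61 to 0.71), without IR replicate 1 (0.44), without either CR replicate (0.62 and 0.68), by edgeR (0.65 and 0.56), by DESeq2 (0.63 and 0.54) and against the DMSO libraries (0.49 and 0.47), and that of CR cells under TMM and quantile normalization (0.54 and 0.52). GSTZ1, of tyrosine breakdown, rose from 9.42 and 8.38 CPM to 16.2 and 14.1 CPM in IR and 20.7 and 21.1 CPM in CR cells (0.71 and 1.15, SE 0.18). Against the DMSO libraries, at 15.0 and 16.6 CPM, GSTZ1 was not changed in either (-0.06 and 0.38), and the IR call was also lost without parental replicate 2 (0.63) or IR replicate 1 (0.61) and under quantile normalization (0.54). GSTK1, the mitochondrial and peroxisomal kappa enzyme, rose in Hep3B-CR cells from 34.0 and 30.4 CPM to 78.4 and 69.0 CPM (1.17 ± 0.13 SE).

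SULT1E1 and SULT2A1 held the largest changes in size after CYP2B6. SULT1E1 (chromosome 4, 70706930 to 70725863), the estrogen sulfotransferase, rose in Hep3B from 2.11 and 2.50 CPM to 320 and 300 CPM in IR and 68.3 and 32.4 CPM in CR cells (6.56 and 3.86, SE 0.42, limma adjusted p at most 3.5e-05). In Huh7 it measured 0.175 and 0.268 CPM in parental, 5.16 and 5.46 CPM in CR (2.37) and 0.199 and 2.19 CPM in IR cells (0.68, adjusted p = 0.19 by limma). It was 175 CPM per kb in Hep3B-IR cells, against 1.30 CPM per kb in Hep3B parental cells. SULT1C4 (chromosome 2, 108994367 to 109005445), a fetal enzyme of phenols, rose in Hep3B from 98.6 and 55.4 CPM to 324 and 261 CPM in IR and 207 and 183 CPM in CR cells (1.96 and 1.39, SE 0.35). The CR call was lost without parental replicate 2 (0.98) or CR replicate 1 (1.30). Huh7 libraries lay between 50.1 and 93.3 CPM without a call. SULT1B1, of thyroid hormone sulfation, rose from 0.0582 and 0.121 CPM to 6.15 and 9.89 CPM in Huh7-CR cells (3.02 ± 0.19 SE), from 0.256 and 0.183 CPM to 3.56 and 3.62 CPM in Hep3B-IR (1.91) and to 1.52 and 0.876 CPM in Hep3B-CR cells (0.84, and 0.62 without CR replicate 1, no longer a call). Huh7-IR libraries measured 0.265 and 0.172 CPM. SULT1B1 reached 1 CPM in 5 libraries, all of them in the groups where it rose, and became a member only through these.

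SULT1A1 (chromosome 16, 28616517 to 28625600), the main phenol sulfotransferase of liver, fell in Huh7 from 13.4 and 14.4 CPM to 2.04 and 3.67 CPM in IR and 2.02 and 2.63 CPM in CR cells (-1.98 and -2.17, SE 0.25). In Hep3B-IR cells it measured 41.9 and 44.2 CPM against 23.3 and 27.5 CPM in parental cells (0.74 ± 0.25 SE), and this call was lost without any 1 of the 4 libraries (0.63 to 0.86) and under TMM or quantile normalization, edgeR and DESeq2. SULT1A2 fell in Huh7-CR cells by 0.66, lost without any 1 of the 4 libraries (-0.59 to -0.72). SULT1A3 and SULT1A4 are duplicated genes with equal counts in all 16 libraries and are 1 measurement, at 8.28 to 26.9 CPM, which changed in no resistant line. SULT1C2 rose in Huh7-IR from 0.568 and 1.19 CPM to 12.2 and 10.1 CPM (2.71 ± 0.50 SE), but not against the DMSO libraries (0.87), which measured 2.39 and 12.1 CPM. It also rose in Huh7-CR cells, from a mean of 0.346 to 1.73 CPM per kb, but not against the DMSO libraries (-0.31). In Hep3B-IR cells it rose from 4.82 to 15.2 CPM per kb, with 13.3 in DMSO cells. None of these calls held in every alternative.

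DMSO cells were compared with parental ones of the same line. In Huh7 10 members rose and none fell by limma (14.9%), where 4.83% of all genes changed (3.46% rose and 1.37% fell), while 17 had an unadjusted p under 0.05. With members that share reads counted once, 9 rose there. In Hep3B 2 rose and none fell by limma (2.99%), where 1.58% of all genes changed (1.07% rose and 0.513% fell), while 29 had an unadjusted p under 0.05. In Hep3B edgeR made no call, while DESeq2 made 15, 3 higher and 12 lower, and quantile normalization 2 higher and 9 lower. Which calls passed in Hep3B DMSO cells thus depended on the setting. In the main fit the 20 UGT members already had a median change of -1.54 there, with none called. At an unadjusted p with the same minimum change, 8 members were higher and 17 lower. SULT1A1 rose in Huh7 DMSO cells from 13.4 and 14.4 CPM to 38.8 and 66.2 CPM (1.79 ± 0.25 SE), CYP4F3 from 1.28 and 0.643 CPM to 3.56 and 7.81 CPM (1.71 ± 0.24 SE) and SULT1A2 from 1.09 and 1.18 CPM to 3.56 and 6.28 CPM (1.43 ± 0.20 SE). The other 7 calls in Huh7, CYP2B6 (1.64) among them, were lost without either parental replicate, and with the 4 libraries alone none of the 10 passed. In Hep3B the calls were SULT2A1 (2.16 ± 0.46 SE) and SULT1A2 (0.90 ± 0.20 SE), lost without DMSO replicate 1 (2.25 and 0.94), DMSO replicate 2 (2.07 and 0.86) or parental replicate 1 (1.38 and 0.86), and that of SULT1A2 also without parental replicate 2 (0.94). UGT1A9 in Hep3B DMSO cells lay below parental cells by 1.85, with a limma adjusted p of 0.067.

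The parental lines differed in 45 of the 67 members (67.2%), where 42.6% of all genes differed (18.9% higher in Huh7 and 23.7% in Hep3B). Of the members 10 were higher in Huh7 and 35 in Hep3B, and 19 of the 20 UGT members were higher in Hep3B. With members that share reads counted once, 10 were higher in Huh7 and 26 in Hep3B. GSTP1 was the member that set Huh7 apart, at 627 and 393 CPM against 0.0269 and 0.197 CPM in Hep3B (8.81 ± 0.21 SE). GSTM1 was also higher in Huh7, at 28.5 and 23.7 CPM against 1.91 and 1.67 CPM (3.27 ± 0.22 SE), and so was SULT2A1 (2.16 ± 0.46 SE). GSTT1 was not detected in Huh7 parental libraries and measured 17.3 and 18.4 CPM in Hep3B, which is at least 409-fold higher against the floor of 3 reads per library. UGT2B7 was higher in Hep3B, at 34.9 and 25.9 CPM against 0.975 and 1.22 CPM (-3.89 ± 0.35 SE), as were CYP7B1 (-3.23), CYP2U1 (-3.15) and UGT2B15 (-2.81). The 9 UGT1A members were called together, as 1 locus, and 8 of the 9 calls were lost without Huh7 parental replicate 2 or Hep3B parental replicate 1, and that of UGT1A6 without the former (-1.18).

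Between the regimens, 2 members were higher and 17 lower in Huh7-IR than in Huh7-CR cells (28.4%), where 13.7% of all genes differed (8.23% higher and 5.43% lower). Of these 19 calls CYP27C1 (1.47) and SULT1B1 (-2.86) held without any 1 library. In Hep3B 23 were higher and 4 lower in IR than in CR cells (40.3%), where 11.7% of all genes differed (5.33% higher and 6.41% lower). Of these calls 9 held. CYP2B6 (6.53 ± 0.39 SE), UGT2B15 (4.17), UGT2B17 (3.18), SULT1E1 (2.69 ± 0.42 SE) and UGT2B11 (2.28) held in every alternative, and CYP7B1 was lower in IR cells (-1.30 ± 0.17 SE).

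Averaged over both regimens, the change differed between the lines for 30 members (44.8%), where 29.4% of all genes differed (16.3% higher and 13.1% lower in Huh7), 8 with the higher change in Huh7 and 22 with the higher change in Hep3B. CYP1B1 (3.33 ± 0.46 SE) and CYP2U1 (1.95 ± 0.47 SE) were the highest. CYP2B6 (-5.70 ± 0.48 SE), SULT1E1 (-3.68 ± 0.52 SE) and SULT1A1 (-2.63 ± 0.31 SE) were the lowest. On reads the difference of SULT1E1 was not called by edgeR (-2.34, adjusted p = 0.11) or DESeq2 (-2.30, adjusted p = 0.080). CYP1A1 and CYP2S1 were not among the 30. The calls of CYP1B1, CYP26B1, CYP2B6, CYP2J2, GSTM3 and SULT1A1 held in every alternative, and 18 of the 30 were lost without some library.

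**Figure D5:**
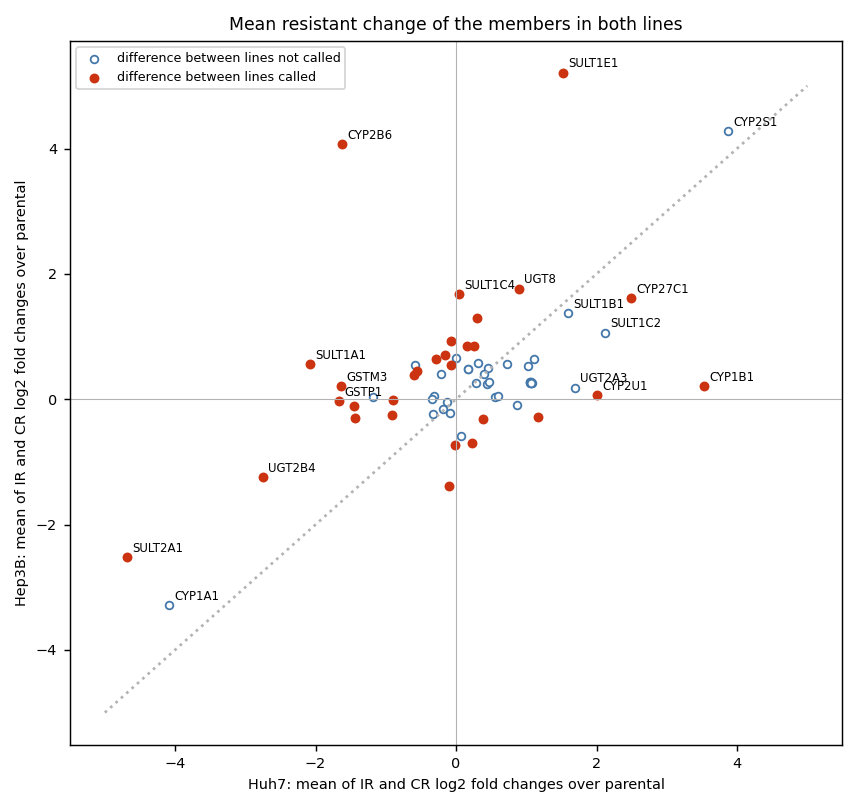
Log2 fold change over parental cells, averaged over both regimens, for the 67 members, in Huh7 on the x axis and Hep3B on the y axis, with equal change on the dotted line. Filled points mark the 30 members whose difference between the lines passed the test. CYP1A1 and CYP2S1 lie near the line, CYP2B6 and SULT1E1 far above it and CYP1B1 far below.

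Summed over all members, Hep3B-IR libraries measured 2423 and 2484 CPM, Hep3B parental ones 1197 and 954 CPM and Hep3B-CR ones 1232 and 1115 CPM. Huh7-IR libraries measured 793 and 896 CPM, Huh7 parental ones 1529 and 1201 CPM and Huh7-CR ones 1084 and 1281 CPM, where the 9 UGT1A members and SULT1A3 with SULT1A4 count the same reads repeatedly. GST transcripts made up 1135 and 866 CPM of the sum in Huh7 parental and 421 and 491 CPM in Huh7-IR cells, and SULT transcripts 180 and 139 CPM in Hep3B parental and 777 and 707 CPM in Hep3B-IR cells.

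The partners of these enzymes were taken as lists, whose calls were not repeated without single libraries. Over all genes 48.8% (IR) and 34.5% (CR) changed in Huh7, and 27.1% (IR) and 32.2% (CR) in Hep3B, and the counts below are to be read against these shares. Of 8 electron donors of the P450 enzymes 1 fell in Huh7-IR cells (CYB5B, a mitochondrial cytochrome b5, -0.79) and none changed in the other 3 resistant lines by limma. POR lay between 21.3 and 70.3 CPM in all libraries. Of 8 genes that supply cosubstrates 1 rose and 3 fell with IR in Huh7 (1 and 2 with CR), while 2 rose with IR in Hep3B and 1 with CR. The gene risen in all 4 was PAPSS2, which makes the sulfate donor PAPS, with changes of 0.99, 1.21, 2.22 and 2.09 (SE 0.20). It measured 184 and 156 CPM in Huh7 parental, 316 and 359 CPM in IR and 376 and 413 CPM in CR cells, and in Hep3B 19.3 and 27.5 CPM, 125 and 98.5 CPM and 98.4 and 105 CPM. GCLM, of glutathione synthesis, and GSR, which recycles glutathione, fell in both resistant Huh7 lines. GCLM went from 134 and 161 CPM to 30.3 to 39.8 CPM in the 4 resistant libraries (-1.88 and -2.19, SE 0.24) and GSR by 1.04 and 1.05. UGDH, which makes UDP-glucuronic acid, fell in Huh7-IR cells (-1.14).

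Of 16 xenobiotic sensors and liver factors, 15 were tested, since NR1I3 was under the level. In Huh7 4 rose and 6 fell with IR, 2 and 4 with CR, with medians of -0.08 and -0.23 on the log2 scale. In Hep3B 1 rose and 3 fell with IR, 2 and 4 with CR, with medians of -0.25 in both. AHR, which binds GCGTG with ARNT, measured 191 and 245 CPM in Huh7 parental and 602 and 398 CPM in Huh7-IR cells (1.18 ± 0.18 SE), and its repressor AHRR 1.80 and 1.30 CPM and 11.4 and 12.4 CPM (2.34 ± 0.25 SE). In Hep3B-IR cells AHR did not change (0.03) and AHRR fell from 8.98 and 5.56 CPM to 2.82 and 2.09 CPM (-1.23 ± 0.25 SE), where CYP1A1 fell too. The 2 genes of the list that rose with CR were NR1I2 and PPARA in Huh7 and VDR and PPARA in Hep3B. Neither AHR nor AHRR thus rose in CR cells, where CYP1A1 fell as well. NR1I2 (PXR) rose in Huh7-CR cells from 0.131 and 0.214 CPM to 3.93 and 3.02 CPM (1.93 ± 0.30 SE). CEBPA, a factor of hepatocyte genes, fell in all 4 lines (-4.42, -4.89, -1.43 and -1.27, SE 0.32), HNF4A fell in Huh7 only (-2.45 and -1.28), with -0.08 and -0.73 in Hep3B, and PPARA rose in all 4 (1.60 to 2.29). VDR, which induces CYP24A1, rose in Hep3B-CR cells (3.17 ± 0.21 SE), where CYP24A1 changed by -0.35 without a call.

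Of 44 other drug-metabolizing enzymes 35 were tested. In Huh7 8 rose and 10 fell with IR, 7 and 9 with CR, with medians of -0.13 and 0.11. In Hep3B 7 rose and 3 fell with IR, 13 and 10 with CR, with medians of 0.06 and 0.05. In Huh7-IR cells the share that changed was close to that of all genes. The hydroxysteroid reductases AKR1C1, AKR1C2, AKR1C3 and AKR1C4 rose in Hep3B-IR cells, AKR1C1 from 1.25 and 1.20 CPM to 135 and 164 CPM (6.07 ± 0.47 SE), and lay without a call in Huh7, where AKR1C1 parental libraries measured 81.9 and 91.4 CPM. They are close copies of each other. NQO1, a quinone reductase and target of NRF2, fell in Huh7-IR and Huh7-CR cells (-3.06 and -2.34, SE 0.36) and in Hep3B-CR cells (-1.23). ALDH2 rose in all 4 resistant lines, and ALDH3A2 and NAT1 fell in all 4.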

How the data were processed

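RNA of 16 libraries, 2 in each of 8 groups, was sequenced. Per the study's methods the authors mapped reads to hg19 with STAR, kept unique hits, counted them over exons of RefSeq mRNAs and deposited CPM (reads of a gene per 1000000 counted reads) for 26258 genes, of which 26111 were matched to a symbol by Entrez ID. The methods name a total RNA kit and poly(A) RNA, the labels an mRNA kit with poly(A) enrichment, and the methods state biological triplicates. Unique mapping leaves out reads that close copies (GSTM, UGT2B, SULT1A and AKR1C genes) share, and their split is uncertain. Whole reads were recovered from the CPM (100% of values within 0.05 reads).

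Groups came from the sample labels. limma 3.58.1 (R 4.3.3, trend) was fitted to log2(CPM + 1) of the 15019 genes that reached 1 CPM in 2 or more libraries, all 16 libraries in 1 model, with Benjamini-Hochberg adjustment over all genes. Calls needed an adjusted p under 0.05 and a change of 0.58 or more on the log2 scale. Alternatives were edgeR 4.0.16 and DESeq2 1.42.0 on recovered reads, other scalings, pseudocounts and filters, DMSO libraries as reference, and leaving out each library. The limma and edgeR fits were tested on simulated counts. Counting intervals (95%) and the floor of 3 reads cover counting error only. Gene coordinates are on GRCh37 and promoters on GRCh38.p14. The members, lists and tests were chosen with earlier results of these data known. The genes named were those called the same way in all 4 resistant lines, the 3 largest and 3 lowest changes in each resistant line, the 2 largest and 2 lowest in the DMSO, regimen and parental comparisons, the 3 largest and 3 lowest differences between the lines, and a set list of well-known drug enzymes (CYP3A4, UGT1A9 and others). Members beyond this rule, and genes of the partner lists, were named after their values were seen, and some genes are not reported here.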

Additional observations from a re-analysis of the deposited data

Results flagged for a closer look

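For 16 of the members chosen by the naming rule, the change averaged over both resistant kinds differed between Huh7 and Hep3B by the contrast of both changes in limma, given here in log2 units as Huh7 minus Hep3B. The change was higher in Huh7 for CYP1B1 (3.33), CYP2U1 (1.95), CYP27A1 (1.45), CYP7B1 (1.29) and CYP27C1 (0.88). It was lower in Huh7 for CYP2B6 (-5.70), SULT1E1 (-3.68), SULT1A1 (-2.63), SULT2A1 (-2.17), GSTP1 (-1.64), SULT1C4 (-1.64), UGT2B4 (-1.51), SULT1A2 (-1.002), CYP4F3 (-0.89), UGT8 (-0.87) and GSTM1 (-0.86). SULT2A1, UGT2B4, CYP27C1 and UGT8 changed the same way in both lines and differed in size. For CYP7B1, GSTP1 and CYP4F3 1 line held almost no transcript. On reads, edgeR did not call the differences of CYP7B1 (0.72), GSTP1 (-1.12), SULT1E1 (-2.34), CYP4F3 (-4.14) and SULT2A1 (-3.18), and DESeq2 did not call those of CYP7B1 (0.72), GSTP1 (-1.08), SULT1E1 (-2.30) and CYP4F3 (-4.73). Against the DMSO libraries the differences of CYP7B1 (0.54) and SULT2A1 (-0.47) were not called. Quantile normalization ended the call of GSTM1 (-0.69). Leaving out some single library ended those of CYP27A1 (1.27 and 1.37), SULT1C4 (-1.23 and -1.56), SULT2A1 (-1.39 and -2.01), CYP27C1 (0.83 to 0.94), GSTM1 (-0.73 to -0.92), UGT2B4 (-1.18 to -1.39), CYP4F3 (-0.65 to -0.90) and UGT8 (-0.74 to -0.996). Those of CYP4F3 and UGT8 were ended by 10 libraries each.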

How the results depend on the processing

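Under the alternatives run, the counts of members called moved by over 1.5 times as follows, and the cause was not tested. For Hep3B DMSO cells (2) edgeR, a pseudocount of 0.25 CPM, no filter and a fit of the compared groups alone gave 0, a filter of 5 CPM 1, quantile normalization 11, the libraries of the line alone 12, DESeq2 15 and an unadjusted p 25. DESeq2 and quantile normalization turned the split there from 2 higher and 0 lower to 3 and 12 and to 2 and 9. For Huh7 DMSO cells (10) no filter gave 4, and the compared groups or the line alone gave 0. For Huh7-IR against Huh7-CR cells (19) the compared groups alone gave 0, the line alone 4, and members that share reads counted as 1, an alternative chosen after seeing the data, 11. A pseudocount of 4 CPM gave 15 in Hep3B-CR cells (23) and 17 for the difference between lines (30).

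Without 1 library the counts ran from 20 to 28 in Huh7-IR (24), from 21 to 31 in Huh7-CR (35, lowest without parental replicate 2), from 20 to 25 in Hep3B-IR (29), from 13 to 18 in Hep3B-CR (23, lowest without CR replicate 1), from 3 to 19 in Huh7 DMSO (10, 3 without either parental replicate and 19 without DMSO replicate 1), from 0 to 1 in Hep3B DMSO (2), from 2 to 16 between the Huh7 regimens (19, lowest without CR replicate 2), from 11 to 14 between the Hep3B regimens (27), from 29 to 38 between the parental lines (45, lowest without Huh7 parental replicate 2) and from 15 to 28 for the difference between lines (30, lowest without Hep3B parental replicate 2). UGT2A3 in Huh7-IR cells ran from -1.09 without IR replicate 2 to 1.46 without IR replicate 1.

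Of values called in the main fit or in the alternative, the others that changed sign did so against the DMSO libraries. Sign changes without a call in either fit are not listed. In Huh7-IR cells these were GSTO2 (-1.06), SULT1A3 and SULT1A4 (-0.73 each), in Huh7-CR cells CYP27A1 (-0.021), SULT1A3 and SULT1A4 (-0.95 each) and SULT1C2 (-0.31), and in Hep3B-IR cells GSTZ1 (-0.059). In Hep3B-CR cells they were UGT1A6 (1.58), UGT1A10, UGT1A3, UGT1A4, UGT1A5 and UGT1A7 (1.26 each), UGT1A8 (1.25) and UGT1A9 (1.23). For the difference between lines they were UGT1A1 (-1.81), UGT1A6 (-2.03), UGT1A4, UGT1A5 and UGT1A7 (-1.77 each), UGT1A8 (-1.76), UGT1A10, UGT1A3 and UGT1A9 (-1.75 each) and UGT2B10 (-0.013).

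Replicate numbers are shared across groups only as numbers. Deviations of same-numbered libraries correlated between -0.22 and 0.44, and with the replicate block 24 and 35 members were called with IR and CR in Huh7, and 29 and 23 in Hep3B. A library with no read of a gene allows up to 3 reads, so that levels under 0.0390 to 0.0644 CPM could not be told from 0, and 2 libraries in a group leave wide errors where replicates stood apart.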
